A study of Rattus norvegicus with 4 samples.

Results

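The genes described here are 48 that act in G2 and mitosis, chosen by symbol and grouped here by role. Of them, 45 matched a feature among the 30017 with a symbol of their own in the count matrices. Ccnb2, Nek2 and Lbr matched no feature by symbol and were not analysed here. The study took the esophagus of male Sprague-Dawley rats, 6 weeks old, after X-ray exposure and profiled its cells by droplet single-cell RNA sequencing. The control group received 5 sham fractions of 0 Gy and was sampled at day 7. The single-dose group received 1 fraction of 35 Gy and was sampled at day 7. The fractionated groups received 5 fractions of 7 Gy and were sampled at day 7 or at day 14. Esophagi of 5 rats were pooled into 1 library per group, so animals could not be told apart, no test between groups was possible and every interval below (95%) covers counting error only. All tissues were kept cold for shipment, digested with collagenase I, DNase I and trypsin and cleared of dead cells.

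A cell that has copied its DNA enters mitosis when the kinase CDK1, bound to a B-type cyclin, becomes active. Condensins and topoisomerase II shape the chromosomes, kinetochores tie them to spindle microtubules, and the checkpoint holds back the anaphase-promoting complex until every chromosome is attached. The chromosomal passenger complex then moves to the midzone, where the cytokinesis machinery divides the cell. Most of these genes are transcribed together late in the cycle, through MuvB, MYBL2 and FOXM1 complexes that bind a cell cycle homology region (CHR). CCAAT boxes often lie near it. In the esophagus the basal layer holds the dividing keratinocytes, and suprabasal cells leave the cycle as they differentiate.

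Promoters of 5 members are shown, because the results below turn on these genes. They are the 250 bases before the gene start on the gene's strand, 5′ to 3′, from RefSeq on build GRCr8. Capitals mark a CHR (TTTGAA or TTCGAA) or a CCAAT box (CCAAT) on either strand. Anln lies at chr8:29197514-29197763 (minus strand), Kif23 at chr8:71320585-71320834 (minus), Cks2 at chr17:13727520-13727769 (minus), Cdc20 at chr5:137255800-137256049 (minus) and Gtse1 at chr7:118829923-118830172 (plus).
Anln: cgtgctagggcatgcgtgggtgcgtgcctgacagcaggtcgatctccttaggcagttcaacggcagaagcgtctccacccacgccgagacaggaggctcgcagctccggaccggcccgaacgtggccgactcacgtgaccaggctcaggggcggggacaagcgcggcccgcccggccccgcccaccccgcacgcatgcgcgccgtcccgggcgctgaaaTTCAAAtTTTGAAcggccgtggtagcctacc
Kif23: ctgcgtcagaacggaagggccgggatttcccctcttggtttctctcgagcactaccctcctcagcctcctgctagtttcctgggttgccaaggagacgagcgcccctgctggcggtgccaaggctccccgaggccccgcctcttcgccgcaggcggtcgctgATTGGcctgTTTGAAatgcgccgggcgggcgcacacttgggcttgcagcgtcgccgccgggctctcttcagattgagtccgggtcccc
Cks2: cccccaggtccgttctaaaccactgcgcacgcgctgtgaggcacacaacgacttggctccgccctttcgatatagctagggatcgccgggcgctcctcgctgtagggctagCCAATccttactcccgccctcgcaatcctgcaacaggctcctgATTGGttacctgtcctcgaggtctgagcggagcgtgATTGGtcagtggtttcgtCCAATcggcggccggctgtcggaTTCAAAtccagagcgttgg
Cdc20: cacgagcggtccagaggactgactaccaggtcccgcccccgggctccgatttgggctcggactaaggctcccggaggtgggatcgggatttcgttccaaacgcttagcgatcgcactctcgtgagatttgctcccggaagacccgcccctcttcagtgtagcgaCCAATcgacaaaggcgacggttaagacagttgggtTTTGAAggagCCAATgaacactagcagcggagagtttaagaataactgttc
Gtse1: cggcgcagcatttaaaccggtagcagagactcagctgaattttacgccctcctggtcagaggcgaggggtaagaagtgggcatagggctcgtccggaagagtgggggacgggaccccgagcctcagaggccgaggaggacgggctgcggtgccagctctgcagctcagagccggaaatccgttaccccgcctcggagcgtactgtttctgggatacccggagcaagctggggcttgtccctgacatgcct
The Anln window held 2 CHR matches and 0 CCAAT boxes, the Kif23 window 1 and 1, the Cks2 window 1 and 4, the Cdc20 window 1 and 2, and the Gtse1 window none of either. Of the 45 members measured, 41 had a promoter in the RefSeq table. A CHR match stood in 25 of these 41 (61.0%), against 5814 of all 33469 promoters (17.4%). A CCAAT box stood in 31 (75.6%), against 34.0% of all promoters, and 21 members (51.2%) held 2 or more, against 9.42%. Both a CHR and at least 2 CCAAT boxes were found in 15 members (36.6%), against 1.74% of all promoters. An E2F site spelled TTTCGCGC, TTTGGCGC or TTTCCCGC was found in 1 member (2.44%), against 1.41%. All 4 cytokinesis members and 5 of 6 chromosome structure members held a CHR match, but only 2 of 8 kinetochore and checkpoint members did. A match is a stretch of letters, not a measured binding site, and a missing match says only that these letters are not in this window.

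The libraries held 59805782 to 109618791 UMIs, and 8885 to 11358 cells were kept in each, with a median of 5063 to 6266 UMIs. Doublets were called in 2.15% to 4.12% of cells and left out, against an expected 7.26% to 9.45%, so doublets remained. Pairs of libraries shared 26 to 38 barcodes. Cells were classed by clusters formed without cell cycle genes, and 35 of 40 clusters were named from marker genes. Basal epithelial cells fell mostly in cluster 6 in the control and fractionated day 14 libraries, in clusters 16 and 26 in the single-dose library and in cluster 1 in the fractionated day 7 library. Suprabasal cells fell mostly in cluster 13 in the control library, in cluster 17 after the single dose and in clusters 4 and 9 in the fractionated day 7 library. A cluster made mostly of 1 library may be that library rather than a cell type. Clusters 4 and 17 had no marker among their 10 leading genes, and cluster 17 was led by genes including Krt16, a keratin of stressed epithelium, Fabp5 and Rbp2. The suprabasal and basal marker scores were 0.930 and 0.920 in cluster 4 and 1.00 and 0.727 in cluster 17. Clusters 5 and 20, which were shallow, and clusters 32, 36 and 38, in which most cells were called doublets, stayed unnamed and entered no class. Cluster 5 scored highest for blood endothelium, at 1.36 beside 1.325 for erythroid cells, with 9 of 9 endothelial markers 2-fold up. It held 785 control, 167 single-dose, 327 fractionated day 7 and 586 day 14 cells. A name needed at least 3 markers of that type 2-fold up, and clusters 6, 25 and 37 were named basal, fibroblast and dendritic although a type with fewer such markers scored higher. In cluster 25 the fibroblast score was 1.63 and the mesothelial score 2.08.

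To separate how many cells were cycling from how strongly each cycling cell expressed the members, a mitotic gate was drawn from 47 other mitosis genes, none of them a member. Each cell was thinned to 2000 UMIs, shallower cells were left out, and a cell with at least 3 UMIs over the gate genes was called gated. The gate catches cells with G2 and mitosis transcripts, not cells seen to divide.

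In basal epithelial cells taken as a class, the gated share was lower at day 7 after either schedule than in the control library, but after the single dose this rested on cluster 26. Gated cells were 32.4% (29.7 to 35.2) of 1163 cells in the control library, 26.4% (24.3 to 28.6) of 1682 after the single dose, 17.7% (16.3 to 19.2) of 2610 at day 7 after fractionation and 31.6% (26.3 to 37.3) of 288 at day 14. The fractionated day 7 library was thus the lowest, and the day 14 and control intervals overlapped. The share relative to control was 0.814 (0.708 to 0.937) after the single dose, 0.546 (0.476 to 0.627) at day 7 after fractionation and 0.975 (0.767 to 1.23) at day 14. All 3 ratios share the control library. Fractionated over single-dose cells at day 7 gave a ratio of 0.671 (0.587 to 0.766). Cluster 16, the larger of the single-dose basal clusters, was gated at 35.2% (32.3 to 38.2), beside 32.5% (29.7 to 35.3) in control cluster 6. Cluster 26 of the single-dose library was gated at 11.7% (9.13 to 14.7). Cells left out as shallow numbered 32, 29, 382 and 17 in the same order. Without thinning, shares of 56.1%, 50.6%, 23.0% and 49.8% were found, in cells with median depths of 12387, 14703, 4989 and 13284 UMIs. Cells exactly at 3 gate UMIs made up 10.99% to 17.3% of those gated. Fibroblasts, a class with few dividing cells, gave shares of 1.42%, 1.10% and 1.60% in the control, single-dose and day 14 libraries, at median depths of 7435, 4738 and 10248 UMIs. The fractionated day 7 library gave 0 of 41 fibroblasts, which allows a share of up to 7.32% by the limit of 3 counts used for every share of 0.

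Suprabasal cells showed another order, with the single-dose library far above the others. Gated cells were 7.95% (6.48 to 9.63) of 1195 in the control library, 29.5% (27.1 to 32.0) of 1363 after the single dose, 6.83% (5.98 to 7.76) of 3206 at day 7 after fractionation and 4.26% (1.17 to 10.5) at day 14, where 4 of 94 cells were gated. The single-dose share was 3.71 times the control share (2.96 to 4.69), and the fractionated day 7 share was 0.859 of it (0.672 to 1.11). Cells left out as shallow numbered 59, 23, 144 and 17, and median depths were 19093.5, 26332, 8802 and 10869 UMIs. Before thinning the shares came to 37.9%, 61.3%, 15.9% and 16.2%. Nearly all of the single-dose excess lay in cluster 17, which held 381 of the 402 gated cells and was gated at 38.6%. Clusters 27 and 9 of the same library were gated at 4.21% and 6.15%. Without clusters 4 and 17, an alternative added after seeing the data, the single-dose ratio was 0.629 and the direction turned. Where cells were classed singly by marker sums the ratio was 3.10.

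Gated suprabasal cells carried basal as well as suprabasal markers. The 9 basal markers summed to 57.7 UMIs per 10000 UMIs in gated suprabasal control cells, 57.1 after the single dose and 64.7 at day 7 after fractionation. In suprabasal cells outside the gate they summed to 32.7, 60.3 and 41.9. After the single dose the basal marker sum was thus not higher within the gate than outside it. The 13 suprabasal markers summed to 74.6, 56.1 and 51.5, against 208, 140 and 179 in the cells outside the gate. In gated basal cells the basal markers summed to 124, 76.0, 115 and 140 UMIs per 10000 UMIs, with the day 14 library last. The suprabasal marker sum was thus lower in gated suprabasal cells than in those outside the gate in every library listed. Over both epithelial classes together, the gated shares were 20.02%, 27.8%, 11.7% and 24.9%. Relative to control these gave 1.39 (1.24 to 1.56) after the single dose, 0.585 (0.519 to 0.659) at day 7 after fractionation and 1.24 (0.986 to 1.55) at day 14. These pooled values depend on the mix of classes: basal cells were 1163 of 2358 epithelial cells in the control library, 1682 of 3045 after the single dose, 2610 of 5816 at day 7 after fractionation and 288 of 382 at day 14. The day 14 ratio lay above 1 although both class ratios, 0.975 and 0.535, lay below it.

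**Figure D1:**
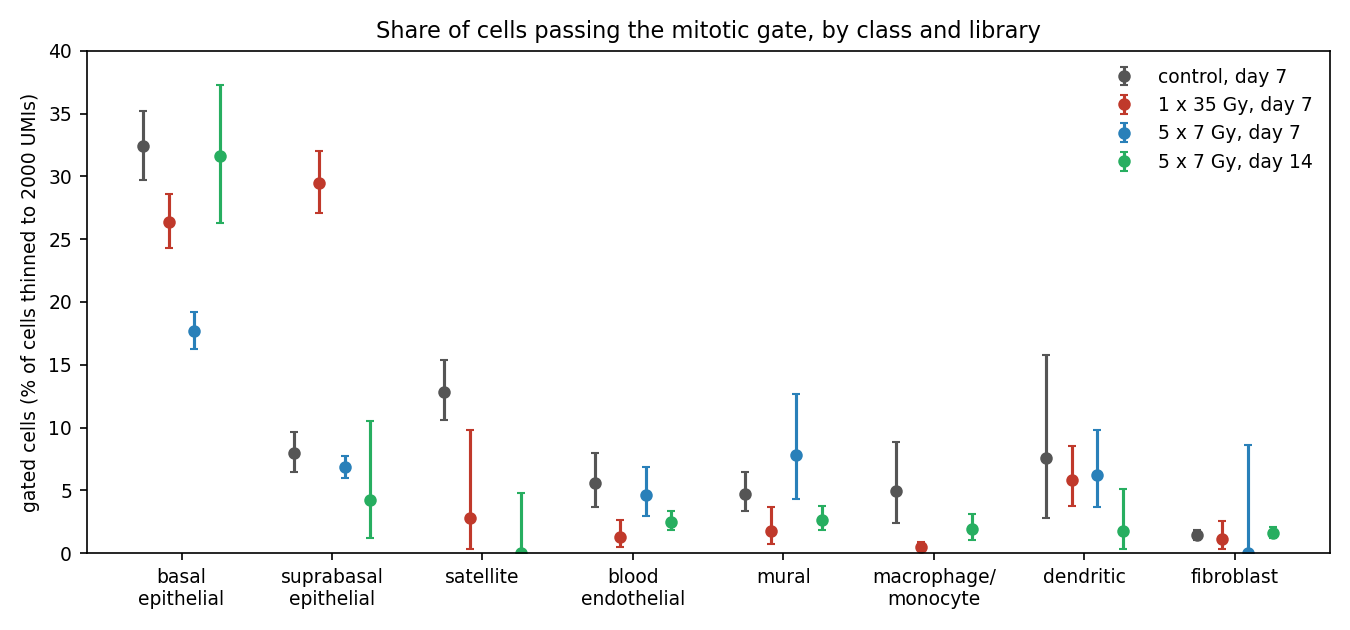
Share of cells passing the mitotic gate (y axis, % of cells thinned to 2000 UMIs) in 8 cell classes (x axis), 1 point per library with its exact 95% interval for counting error. Single-dose suprabasal cells stand at 29.5% beside 7.95% in the control library, and basal cells at day 7 after fractionation stand lowest of the basal points at 17.7%.

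Over all basal cells the members stood lower at day 7 after fractionation. Their median log2 ratio to control was -0.79, against 0.04 for all 11305 genes tested, and 15 of 45 were at least 2-fold lower and 0 at least 2-fold higher. Among all genes 11.8% were at least 2-fold lower and 11.9% higher. After the single dose the median log2 ratio was -0.33 (all genes 0.17), with 5 of 45 members at least 2-fold lower, close to the 9.06% of all genes, and 0 higher (9.51% of all genes). At day 14 the median log2 ratio was -0.19 (all genes -0.01), with 0 members at least 2-fold lower (4.06% of all genes) and 1, Gtse1, higher (5% of all genes). Between the day 7 schedules, fractionated over single-dose, the median log2 ratio was -0.45 (all genes -0.09), with 8 members at least 2-fold lower (12.9% of all genes) and 1, Gas2l3, higher (7.82%).

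Within gated basal cells most of the day 7 fractionated difference was absent. The median log2 ratio of the members to control was 0.11 there, against 0.14 for all genes, with 2 of 45 at least 2-fold higher (12.4% of all genes) and 0 lower (8.63%). In the thinned cells a gated basal cell held a mean of 24.3 ± 14.0 member UMIs (SD over cells) in the control library, 18.3 ± 11.1 after the single dose, 24.8 ± 15.1 at day 7 after fractionation and 24.7 ± 12.6 at day 14. Cells outside the gate held 2.22, 2.22, 1.15 and 2.26. The control, fractionated day 7 and day 14 means were close, and the single-dose mean was the lowest.

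The single-dose library had fewer member UMIs per thinned gated cell than the control library in both epithelial classes, in basal cells mostly through cluster 16. Gated cells held a mean of 17.4 in cluster 16 and 22.7 in cluster 26 of the single-dose library, beside 24.2 in control cluster 6. In suprabasal cells the means were 16.6 in single-dose cluster 17 and 23.1 in control cluster 13. Before thinning the single-dose means were the higher, at 246 against 214 in basal and 297 against 282 in suprabasal cells. Within gated basal cells the members' median log2 ratio to control was -0.48 (all genes 0.14). At least 2-fold lower were 5 of 45 (9.72% of all genes) and 0 were higher (10.8%), so the count past 2-fold was near the background while 38 of 45 members lay below 0. Within gated suprabasal cells the median log2 ratio was -0.39, with 5 of 45 at least 2-fold lower (9.19% of all genes) and 0 higher (10.2%). Over all suprabasal cells the same comparison gave a median log2 ratio of 1.37 (all genes 0.17), with 34 of 45 at least 2-fold higher (11.9% of all genes) and 0 lower (10.4%). Without clusters 4 and 17 that median was -0.88. A gated suprabasal cell held a mean of 23.0 ± 12.1 member UMIs (SD over cells) in the control library, 16.4 ± 8.80 after the single dose and 20.5 ± 11.5 at day 7 after fractionation. The 4 gated cells of day 14 were too few to compare.

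**Figure D2:**
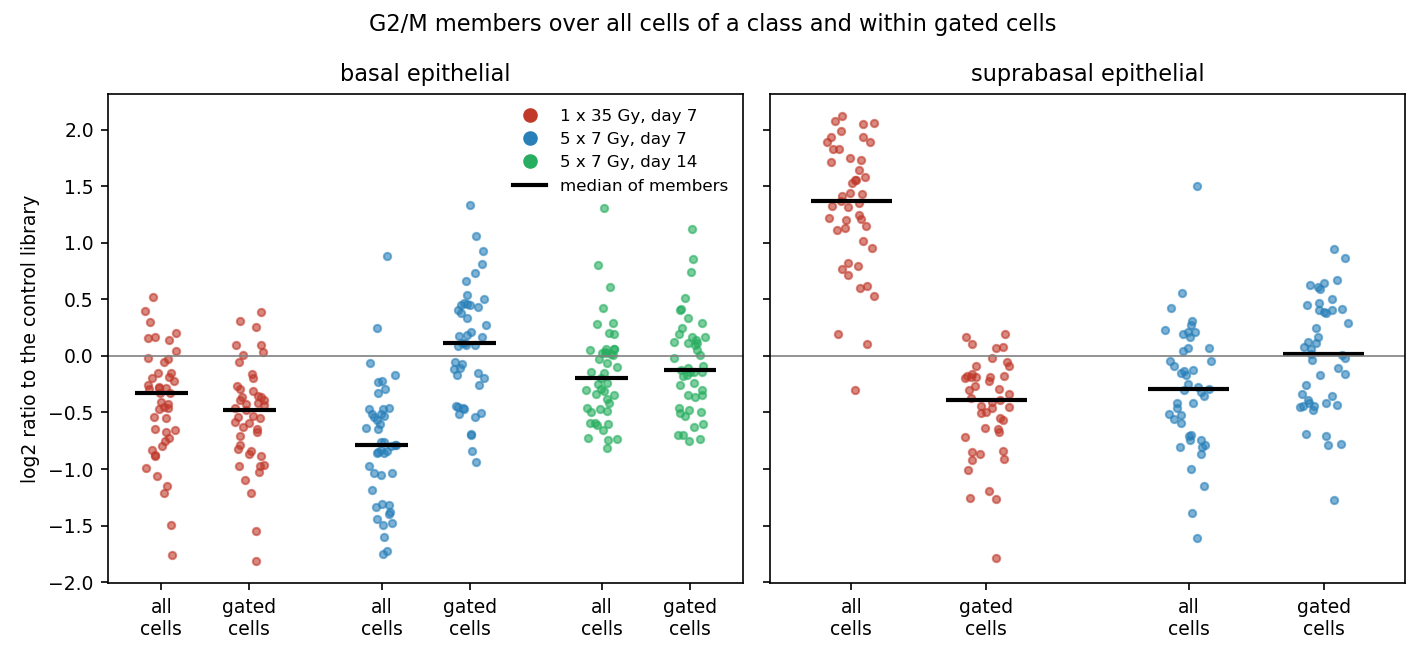
Log2 ratio to the control library (y axis) of each of the 45 members over all cells and within gated cells, in basal (left) and suprabasal (right) epithelium, with the median of members as a bar. Day 7 fractionated basal medians moved from -0.79 over all cells to 0.11 within gated cells, and single-dose suprabasal medians from 1.37 to -0.39.

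Gated cells of the single-dose library also held fewer gate UMIs. Their mean was 6.86 per thinned basal cell, against 9.07 in the control library, 10.2 at day 7 after fractionation and 9.0 at day 14. Cells with 9 or more gate UMIs made up 28.2% of gated basal cells after the single dose, against 50.4%, 53.2% and 49.5%, and 20.4% of gated suprabasal cells, against 48.4% in the control library and 48.9% at day 7 after fractionation. Member UMIs per gate UMI were 2.68, 2.66, 2.43 and 2.74 in gated basal cells, so members and gate genes were lower by a like factor after the single dose. Among basal cells with 9 or more gate UMIs the mean was 33.8 member UMIs in the control library, 27.8 after the single dose, 35.0 at day 7 after fractionation and 32.7 at day 14. Among those with 3 to 4 gate UMIs the means were 8.48, 11.3, 9.30 and 10.0. Among those with 5 to 8 gate UMIs the means were 20.2, 17.3, 16.5 and 19.8, lowest at day 7 after fractionation. The single-dose library was thus lowest only among cells with 9 or more gate UMIs and highest among those with 3 to 4. The group of 9 or more has no upper end, and its basal cells held means of 13.0, 11.7, 14.7 and 12.8 gate UMIs. Total depth moved with these groups: gated basal cells had median totals of 16647, 25001.5, 6528 and 18858 UMIs before thinning, and the part of depth in the result was not tested beyond the thinning itself.

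**Figure D3:**
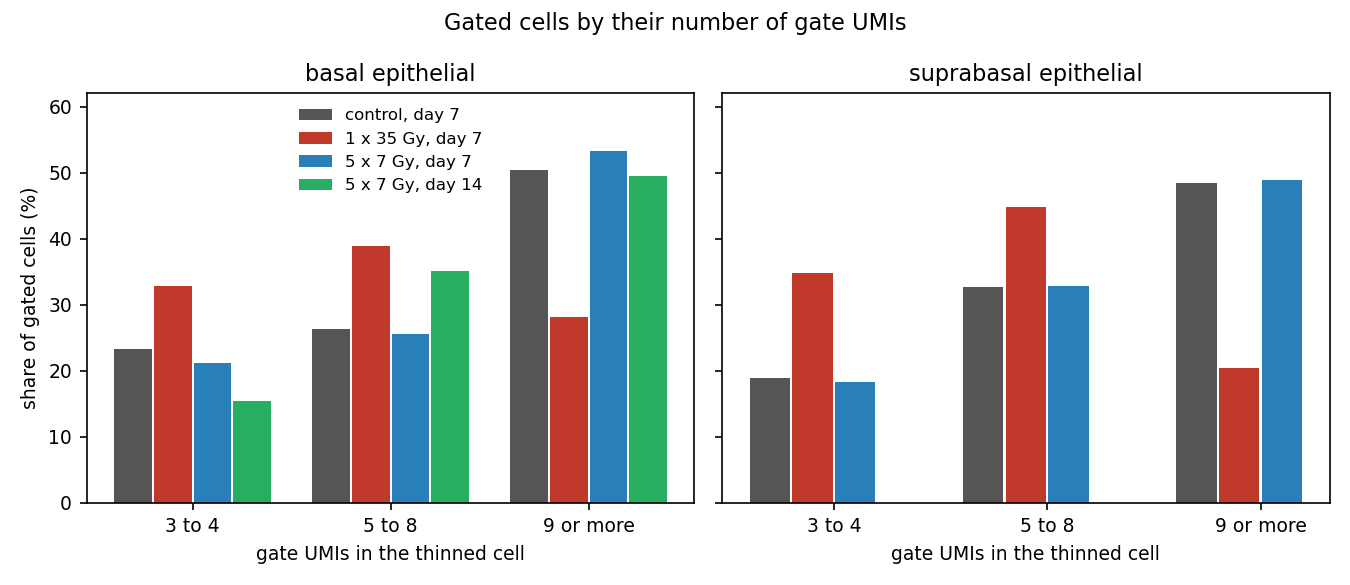
Share of gated cells (y axis, %) holding 3 to 4, 5 to 8 and 9 or more gate UMIs after thinning (x axis), in basal (left) and suprabasal (right) epithelium, 1 bar per library; the day 14 suprabasal bars are left out because only 4 cells were gated. In the 9 or more group the single-dose bars stand at 28.2% and 20.4%, below the other libraries.

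Cytokinesis members showed the lowest ratios among the roles within gated single-dose cells, with a median log2 ratio to control of -1.38 in basal and -1.23 in suprabasal cells. Anln encodes anillin, the scaffold of the contractile ring. It stood at 1.01 UMIs per 10000 UMIs in gated basal control cells, 0.289 after the single dose, 0.732 at day 7 after fractionation and 0.603 at day 14. The single-dose level was the lowest, a log2 ratio to control of -1.81 (-2.01 to -1.62). Kif23, a kinesin of the central spindle, stood at 2.71, 1.17, 2.44 and 2.48 UMIs per 10000 UMIs, a single-dose log2 ratio of -1.21 (-1.31 to -1.11). Gas2l3, which links actin and microtubules at the midbody, stood at 0.648, 0.221, 0.885 and 0.509. Its single-dose log2 ratio was -1.55 (-1.78 to -1.32). Ect2, the exchange factor that activates RhoA at the division plane, stood at 0.857, 0.526, 1.36 and 0.861, and was highest at day 7 after fractionation. In gated suprabasal cells the single-dose log2 ratios to control were -1.79 for Anln, -1.20 for Kif23, -1.27 for Gas2l3 and -0.85 for Ect2. Fractionated over single-dose cells at day 7 gave a median log2 ratio of 1.36 for the 4 genes in gated basal cells, and all 4 were at least 2-fold higher (12% of all genes).

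Spindle members came next, with a median log2 ratio of -0.63 in gated basal and -0.55 in gated suprabasal single-dose cells. Nusap1, which bundles spindle microtubules, stood at 4.30, 2.01, 4.96 and 2.83 UMIs per 10000 UMIs in gated basal cells, with the libraries in the order used for Anln. Kif11, the motor that pushes spindle poles apart, stood at 1.34, 0.657, 1.81 and 0.930. Both were lowest after the single dose, with log2 ratios to control of -1.10 and -1.03. Aurka, the kinase of spindle poles, differed little, at 0.765, 0.818, 0.704 and 1.01. Tubb4b, a beta tubulin found in many cell types, stood at 6.67, 5.09, 3.48 and 12.1 and was highest at day 14, a log2 ratio of 0.86 (0.78 to 0.94).

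Kinetochore and checkpoint members split. Cenpf, a large protein of the outer kinetochore, stood at 8.34, 4.25, 8.83 and 6.48 UMIs per 10000 UMIs in gated basal cells, a single-dose log2 ratio of -0.97. In gated suprabasal cells that ratio was -1.25. Nuf2 and Ndc80, parts of the complex that grips microtubules, had single-dose log2 ratios of -0.67 and -0.65 in gated basal cells. Cenpa, the centromere histone, stood at 0.855, 1.06, 1.503 and 0.924 and was highest at day 7 after fractionation. Ttk and Cenpe, a checkpoint kinase and a kinetochore motor, had single-dose log2 ratios of 0.04 and 0.10. Cells outside the gate gave a different picture for the checkpoint's target. Cdc20, the activator of the anaphase-promoting complex that the checkpoint restrains, stood at 2.20, 2.21, 2.04 and 3.68 UMIs per 10000 UMIs in gated basal cells. Outside the gate it stood at 0.0601, 0.239, 0.0340 and 0.0463, a single-dose log2 ratio of 1.99 (1.58 to 2.42). Ube2c, the E2 enzyme of the same complex, stood at 4.53, 5.42, 6.27 and 6.02 in gated basal cells and at 0.0677, 0.254, 0.0583 and 0.0347 outside the gate. In gated single-dose cells their log2 ratios to control were 0.01 (-0.09 to 0.10) for Cdc20 and 0.26 (0.20 to 0.32) for Ube2c. Both were thus much further above control outside the gate than within it. The 2 genes had single-dose log2 ratios of 2.697 and 2.62 in suprabasal cells outside the gate, where most single-dose cells lay in cluster 17.

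Among chromosome structure members, Top2a stood out at day 7 after fractionation. This gene, topoisomerase II alpha, stood at 7.26, 5.65, 13.8 and 5.26 UMIs per 10000 UMIs in gated basal cells. The fractionated day 7 value was the highest, a log2 ratio to control of 0.93 (0.87 to 0.99), and in gated suprabasal cells it was 0.87 (0.77 to 0.97). Mki67, the coat of mitotic chromosomes and the usual proliferation marker, stood at 7.70, 5.32, 8.35 and 4.76. It was lower in the single-dose and day 14 libraries. Hmgb2, an abundant DNA-bending protein, stood at 27.5, 20.5, 19.96 and 33.5.

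Among the chromosomal passengers, Aurkb, the kinase, stood at 1.06, 0.860, 1.19 and 1.14 UMIs per 10000 UMIs in gated basal cells. Birc5, survivin, stood at 2.68, 2.34, 2.59 and 3.01. Cdca8, borealin, stood at 2.62, 1.94, 1.46 and 2.89 and was lowest at day 7 after fractionation, a log2 ratio of -0.84 (-0.99 to -0.70). Over all basal cells Cdca8 had the lowest log2 ratio of the members in that comparison, -1.75. In the cyclin-CDK group, Cdk1, the kinase that drives entry into mitosis, stood at 2.69, 2.10, 2.87 and 2.92. Cks1b and Cks2 encode small subunits of CDK complexes: Cks1b stood at 2.11, 1.76, 1.87 and 1.66, and Cks2 at 6.78, 3.45, 4.76 and 6.29. Cks2 was lowest after the single dose, a log2 ratio of -0.98 (-1.04 to -0.91). Tmpo, a protein of the nuclear lamina, had a single-dose log2 ratio of -0.59 in gated basal cells.

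**Figure D4:**
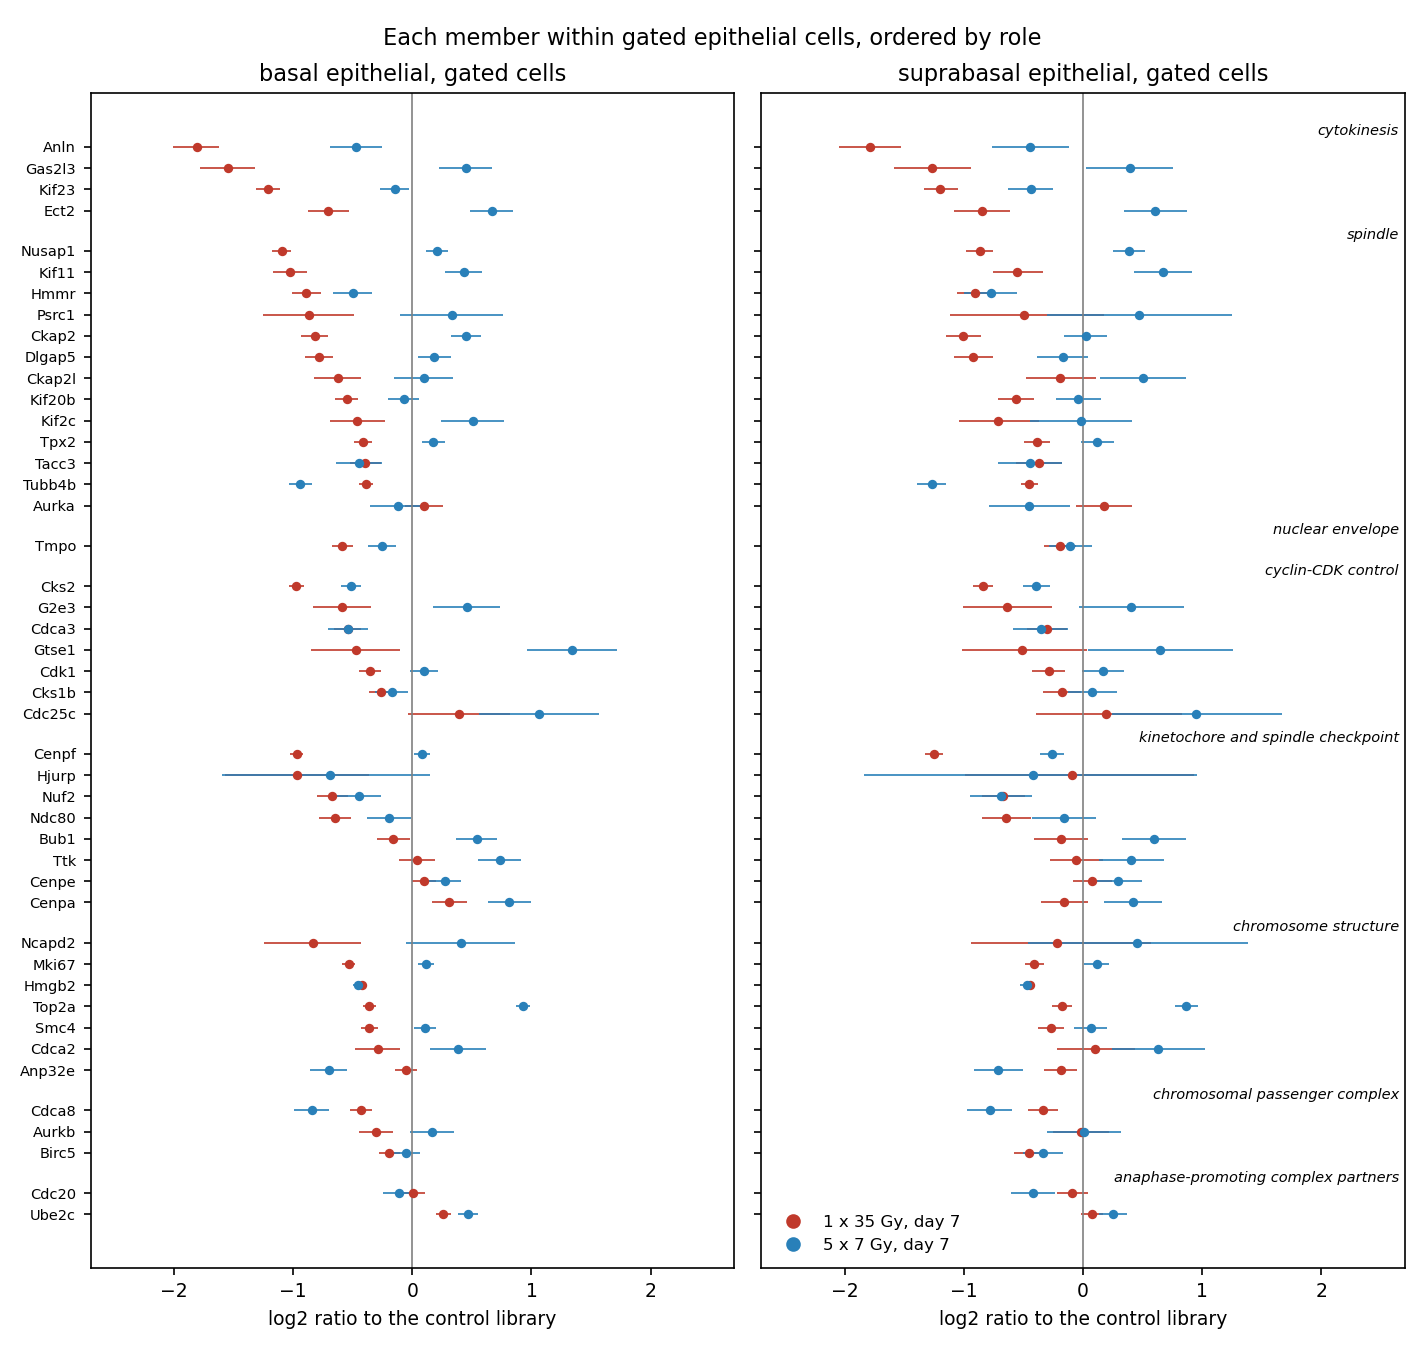
Log2 ratio to the control library (x axis) of the 45 members within gated basal (left) and suprabasal (right) cells, in rows by role, for the single-dose and fractionated day 7 libraries, with 95% intervals for counting error. Anln lies at -1.81 and -1.79 after the single dose, and Top2a at 0.93 and 0.87 at day 7 after fractionation.

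Fractionated over single-dose gated cells at day 7, a comparison without the control library, gave a median log2 ratio of 0.50 in basal and 0.51 in suprabasal cells. At least 2-fold higher were 13 of 45 members in gated basal cells (12% of all genes) and 9 of 45 in gated suprabasal cells (11.7% of all genes), and 0 were lower in either (11.7% and 10% of all genes). Over all suprabasal cells the same comparison had a median log2 ratio of -1.54, with 39 of 45 at least 2-fold lower (12.6% of all genes) and 0 higher (8.25%). At day 14, gated basal cells had a median log2 ratio to control of -0.12, with 1 member, Gtse1, at least 2-fold higher (4.22% of all genes) and 0 lower (5.07%). In suprabasal cells at day 7 after fractionation the median log2 ratio to control was -0.30 over all cells, with 1 member at least 2-fold higher (12.1% of all genes) and 3 lower (10.9%). Within gated suprabasal cells it was 0.02, with 0 members higher (11.1%) and 1, Tubb4b, lower (7.8%).

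Outside the gate, the members' median ratio of basal single-dose cells lay above control, although within the gate it lay below. The summed member level there was alike for the class as a whole but not by cluster. Basal cells outside the gate held a mean of 2.22 member UMIs after thinning in the control library and 2.22 after the single dose. In the single-dose library the mean was 2.79 in cluster 16 and 1.51 in cluster 26, beside 2.21 in control cluster 6. Of 44 members with enough UMIs there, 13 were at least 2-fold higher than control after the single dose (9.27% of all genes) and 2, Cks2 and Anln, lower (8.04%), with a median log2 ratio of 0.63 (all genes 0.21). At day 7 after fractionation 1 of 43, Gtse1, was higher (10.3% of all genes) and 16 lower (11.8%), with a median of -0.81. Between the day 7 schedules, fractionated over single-dose, 0 of 44 were higher (5.07% of all genes) and 27 lower (13.9%). In suprabasal cells outside the gate 29 of 44 were higher after the single dose (9.04% of all genes) and 1, Cks2, lower (9.61%), with a median of 1.53. At day 7 after fractionation 1 was higher (12% of all genes) and 2 lower (11%), and fractionated over single-dose gave 0 higher (7.63%) and 27 lower (10%). The single-dose suprabasal level outside the gate was high in cluster 17 only. Cells there held a mean of 2.67 member UMIs after thinning, against 1.22, 1.36 and 1.43 in clusters 4, 9 and 27 of that library. Control clusters 13 and 27 held 1.76 and 1.28. Cells 1 UMI short of the gate numbered 78, 93, 102 and 15 among basal and 30, 78, 69 and 3 among suprabasal cells in library order, and their part in these values was not tested.

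Taken as a class, blood endothelial cells of the single-dose library had the lowest gated share of the 4 libraries. Gated cells were 27 of 486 (5.56%) in the control library, 7 of 536 (1.31%) after the single dose, 23 of 499 (4.61%) at day 7 after fractionation and 42 of 1673 (2.51%) at day 14. Relative to control the shares were 0.235 (0.0864 to 0.553), 0.830 (0.454 to 1.503) and 0.452 (0.272 to 0.762). Unnamed cluster 5, which scored highest for blood endothelium, is not in the class. Its gated cells were 14 of 128 (10.9%) in the control library and 8 of 112 (7.14%) at day 14. Over all endothelial cells 39 of the 45 members had the 20 UMIs in the pair needed for the single-dose comparison. Of these, 22 were at least 2-fold lower (12% of all genes) and 2 higher (8.35%), with a median log2 ratio of -1.02 (all genes 0.05). At day 14 there were 15 of 44 at least 2-fold lower (4.45% of all genes) and 2 higher (5.77%), with a median log2 ratio of -0.68. At day 7 after fractionation there were 4 of 40 lower (10.1% of all genes) and 2 higher (12.9%), with a median of -0.13. Mki67 stood at 0.671, 0.167, 0.514 and 0.222 UMIs per 10000 UMIs over all endothelial cells, and Cenpf at 0.680, 0.150, 0.457 and 0.351. Both were lowest after the single dose, at log2 ratios of -2.01 and -2.18. The control and day 14 cells lay mostly in clusters 12, 14 and 28 and the day 7 irradiated cells in clusters 10 and 14. In cluster 14, which all 4 libraries held, gated cells were 1 of 122 (0.820%) in the control library and 4 of 125 (3.20%) after the single dose. At day 7 after fractionation they were 4 of 79 (5.06%), and at day 14 4 of 444 (0.901%). The single-dose share was thus not the lowest within that cluster, on few gated cells. Cluster 10 was gated at 0.777% after the single dose and 4.57% at day 7 after fractionation. Depth differed too, with 119, 107, 403 and 190 shallow cells left out, and the unthinned shares were 7.11%, 4.199%, 4.55% and 5.64%. Between the day 7 schedules, fractionated over single-dose, the share ratio was 3.53 (1.47 to 9.74) thinned and 1.08 unthinned. Over all endothelial cells 18 of 39 members were at least 2-fold higher in that comparison (13.1% of all genes) and 1, Tubb4b, lower (8.35%), with a median log2 ratio of 0.96. The difference in depth moved with that share ratio, and its part was not tested further.

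Gtse1 behaved apart from the other members in endothelial cells. Its product binds microtubules and p53 in G2. Over all endothelial cells it had 2 UMIs in the control library, 39 after the single dose, 87 at day 7 after fractionation and 366 at day 14. Outside the gate it had 0, 37, 66 and 342 UMIs, or 0, 0.0941, 0.369 and 0.306 per 10000 UMIs. The 3 irradiated libraries were all above the control library, by 8.56-fold, 33.6-fold and 27.9-fold with the control library set to a floor of 3 counts. These folds depend on that floor and are not lower limits. Over all endothelial cells the log2 ratios to control rested on the 2 control UMIs and were 3.92 (1.97 to 7.01), 5.83 (3.93 to 8.90) and 5.62 (3.75 to 8.67). Fibroblasts outside the gate had 6 Gtse1 UMIs in the control library and 141 at day 14, a log2 ratio of 4.11 (2.95 to 5.58), and mural cells outside the gate had 3 and 79, a log2 ratio of 3.79 (2.19 to 6.10). In gated basal cells Gtse1 stood at 0.168, 0.121, 0.424 and 0.364 UMIs per 10000 UMIs, higher after fractionation at both days but not after the single dose. Cdkn1a, the CDK inhibitor p21 and a p53 target, was measured beside it. It stood at 1.87, 5.76, 4.84 and 11.5 UMIs per 10000 UMIs over all endothelial cells, above control in each irradiated library. Over all basal cells it was below control at day 7, at 1.35 in the control library, 0.156 after the single dose and 0.266 after fractionation. At day 14 it was above control in gated basal cells, at 1.84 beside 1.44, a log2 ratio of 0.35 (0.16 to 0.54).

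Cks2 and Tubb4b also varied in cells outside the gate. In endothelial cells there, 28 of 45 members had enough UMIs after the single dose, 3 at least 2-fold higher than control (9.16% of all genes) and 6 lower (11.3%). At day 7 after fractionation 3 of 23 were higher (12.7%) and 3 lower (10.4%), and at day 14 5 of 31 were higher (6.53%) and 6 lower (3.95%). Cks2 stood at 0.898, 0.109, 0.162 and 0.507 UMIs per 10000 UMIs in endothelial cells outside the gate, and at 1.78, 0.438, 0.235 and 1.01 in basal cells outside the gate. It was high in the control and day 14 libraries and low in both irradiated day 7 libraries. Over all macrophages and monocytes it stood at 3.30 in the control library, 0.130 after the single dose and 3.16 at day 14, but the single-dose cells lay in another cluster than the rest, as described below. Gadd45b, a stress gene of the G2 checkpoint list, was also high in the control and day 14 libraries and low in both irradiated day 7 libraries, at 13.3, 0.788, 0.175 and 14.997 UMIs per 10000 UMIs over all endothelial cells and 3.86, 1.36, 0.116 and 6.52 over all basal cells. Its part in the Cks2 values was not tested. The share of barcodes over the mitochondrial limit was 5.49% and 3.71% in the control and day 14 libraries and 15.2% and 16.6% in the irradiated day 7 libraries, and its part was not tested either. Tubb4b stood at 1.10, 2.63, 0.716 and 3.34 in endothelial cells outside the gate, highest at day 14 and lowest at day 7 after fractionation.

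**Figure D5:**
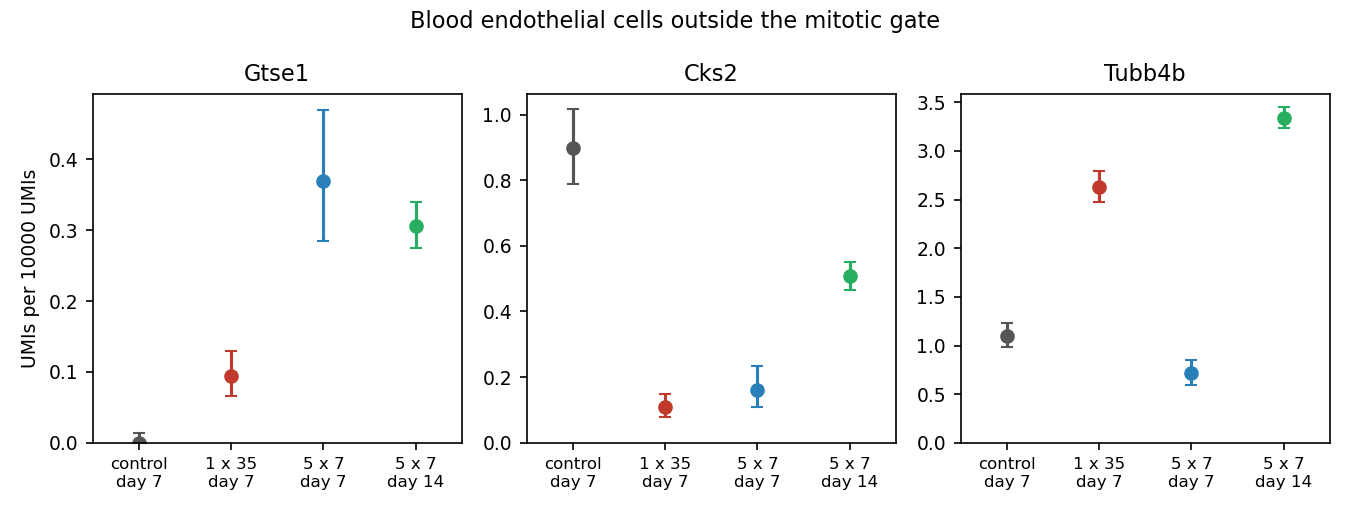
UMIs per 10000 UMIs (y axis, one scale per panel) of Gtse1, Cks2 and Tubb4b in blood endothelial cells outside the mitotic gate, 1 point per library (x axis: Gy schedule and day) with 95% Poisson intervals. Gtse1 was at 0 in the control library and at 0.369 at day 7 after fractionation, and Cks2 was at 0.898 in the control library and at 0.109 after the single dose.

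Mural cells, the pericytes and smooth muscle of vessels, had gated shares of 4.73%, 1.79%, 7.78% and 2.66%. Relative to control these gave 0.379 (0.143 to 0.861) after the single dose, 1.65 (0.822 to 3.12) at day 7 after fractionation and 0.564 (0.338 to 0.934) at day 14. Unthinned, the same ratios were 0.997, 0.810 and 1.12, and fractionated over single-dose cells gave 0.812 against 4.34 thinned, so no mural share difference held without thinning. After the single dose 18 of 41 members tested were at least 2-fold lower than control over all mural cells (13.4% of all genes) and 0 higher (6.07%). Their median log2 ratio was -0.88. At day 14 there were 12 of 43 lower (3.72% of all genes) and 1 higher (5.37%), with a median of -0.67. At day 7 after fractionation there were 3 higher of 41 (10.1% of all genes) and 0 lower (12.4%), with a median of -0.02. Between the day 7 schedules, fractionated over single-dose, 21 of 37 were higher (11.9% of all genes) and 1, Tubb4b, lower (10.4%), with a median of 1.10. Only 180 of the 423 mural cells of that library were deep enough for the gate. The mix of mural clusters differed too, and its part was not tested. Cluster 24 held 23 of the 37 gated control cells. It held 313 control and 348 day 14 cells, but 46 single-dose and 40 fractionated day 7 cells. Control and single-dose shares were 2.12% and 1.68% in cluster 7 and 4.55% and 2.41% in cluster 11. Control and day 14 shares in cluster 24 were 7.69% and 3.03%.

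Satellite cells, the stem cells of the esophageal striated muscle, had a gated share of 12.8% (10.6 to 15.4) of 795 cells in the control library. After the single dose 2 of 71 were gated, and at day 14 0 of 75, which allows a share of up to 4.00%. The 2 gated single-dose cells lay exactly at the gate and held a mean of 1.5 member UMIs, against 28.7 in gated control cells. Cluster 21 held 844 control and 80 day 14 cells, but 7 single-dose and 2 fractionated day 7 cells. Cluster 33 held 80 single-dose, 78 fractionated day 7 and 3 control cells. At day 7, cluster and irradiation thus cannot be told apart. At day 7 after fractionation 8 cells were deep enough. Mki67 stood at 2.12 UMIs per 10000 UMIs (963 UMIs) in control satellite cells, 0.330 (11 UMIs) after the single dose, 0.234 (3 UMIs) at day 7 after fractionation and 0.0303 (1 UMI) at day 14. Top2a had 761, 2, 5 and 0 UMIs. The irradiated values rest on few UMIs, from 86, 80 and 81 cells against 831 in the control library.

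Macrophages and monocytes were not the same cells in each library. Cluster 2, led by genes including Fcnb, Vcan and Plac8, held 2302 single-dose and 3 control cells, and cluster 15, led by genes including C1qa, C1qb and C1qc, held 224 control, 877 day 14 and 3 single-dose cells. The single-dose values below thus set one cluster against another, and cluster and dose cannot be told apart. The class gave 10 of 203 gated cells (4.93%) in the control library, 11 of 2213 (0.497%) after the single dose, 0 of 14 at day 7 after fractionation and 15 of 788 (1.90%) at day 14. Of the 11 gated single-dose cells, 8 lay exactly at the gate, and the 11 held a mean of 2.73 member UMIs against 21.2 in gated control cells. The single-dose share ratio to control was 0.101 (0.0389 to 0.265) thinned and 0.721 unthinned. Over all these cells 31 of 35 members tested were at least 2-fold lower after the single dose (17.6% of all genes) and 0 higher (15.4%), with a median log2 ratio of -2.82. At day 14 there were 23 of 36 lower (5.83% of all genes) and 0 higher (7.82%), with a median of -1.32. Mki67 stood at 1.14, 0.0661 and 0.375 UMIs per 10000 UMIs in the control, single-dose and day 14 libraries. The control value rests on 221 cells. With every cell weighted equally the single-dose median was -1.37. Dendritic cells had gated shares of 7.59%, 5.80%, 6.25% and 1.76%, on 6, 24, 17 and 3 gated cells. Between the day 7 schedules, fractionated over single-dose, 5 of 36 members were at least 2-fold lower (16.4% of all genes) and 1 higher (5.18%). These cells also lay in different clusters: cluster 31 held 80 control and 183 day 14 cells, and cluster 22 held 363 single-dose and 464 fractionated day 7 cells. Cluster 37 held 62 single-dose cells, with 0 of 61 gated.

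Fibroblast gated shares, given above, lay between 1.10% and 1.60% where they could be measured. Their clusters differed between libraries too: single-dose cells lay mostly in cluster 25 (621 cells, 1 in the control library), control cells in clusters 0 and 18 (2526 and 966) and day 14 cells in clusters 3 and 0 (1966 and 1182). Over all fibroblasts the members' median log2 ratio to control was -0.34 after the single dose, with 7 of 44 at least 2-fold lower (12.4% of all genes) and 2 higher (12.7%). At day 14 it was -0.17, with 0 of 45 lower (3.85% of all genes) and 3 higher (9.66%). Each of the control and day 14 libraries had 50 gated fibroblasts. The control ones were 30 in cluster 0, 17 in cluster 18 and 3 in cluster 3, and 36 of those at day 14 were in cluster 3. Within them the median log2 ratio was -0.43 (all genes -0.02), with 2 of 45 lower (3.78% of all genes) and 1, Gtse1, higher (7.38%). G2e3, a ubiquitin ligase expressed in G2, stood at 1.45 UMIs per 10000 UMIs in gated control fibroblasts and 0.454 at day 14, a log2 ratio of -1.68 (-2.22 to -1.16).

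Other genes of the cycle were described from lists on the same summed counts. Over all suprabasal cells 34 of 47 S phase genes were at least 2-fold higher than control after the single dose, with a median log2 ratio of 1.39, and 0 were lower. In that comparison 11.9% of all genes were at least 2-fold higher and 10.4% lower, and cluster 17 held most of the single-dose suprabasal cells. In basal cells the S phase median was 0.25 after the single dose, with 2 higher (9.51% of all genes) and 0 lower (9.06%), and -0.92 at day 7 after fractionation, with 0 higher (11.9%) and 23 of 47 lower (11.8%). Of the 12 MuvB, MYBL2 and FOXM1 regulators tested in suprabasal cells, 4 were at least 2-fold higher after the single dose and 0 lower. Mybl2 stood at 0.0546 UMIs per 10000 UMIs in the control library and 0.241 after the single dose, and Foxm1 at 0.0151 and 0.0460. In the anaphase-promoting complex list 1 of 17 genes was at least 2-fold higher in that comparison: Fbxo5, which inhibits the complex, at 0.0445 and 0.206. Of 13 G1 cyclins, CDKs and pocket proteins 6 were higher and 1 lower, with Ccne1 at 0.0345 and 0.193. Of 12 G2 checkpoint genes 6 were higher and 2 lower. Of 6 CDK inhibitors 1 was higher and 1, Cdkn1a, lower. Among basal cells the G2 checkpoint list had 0 higher and 4 of 13 lower after the single dose, Gadd45a, Gadd45b, Sfn and Wee1. Wee1, the kinase that holds CDK1 inactive, stood at 0.613 in control basal cells and 0.255 after the single dose. Cdkn2a, which encodes the CDK4 and CDK6 inhibitor p16, stood at 0.0329 in control basal cells, 0.204 at day 7 after fractionation and 0.469 at day 14. Ccnd1, cyclin D1, stood at 2.17, 6.17, 5.82 and 8.51 UMIs per 10000 UMIs over all endothelial cells, above control in each irradiated library.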

How the data were processed

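Raw UMI counts, not normalized, were deposited as a sparse matrix for every library, and the file headers name Cell Ranger as its source. Its version was 5.0.0, and mRatBN7.2 and rn7 are the listed builds, both per the submitters' processing notes. Chemistry and instrument, per the labels' protocols, were 10x Genomics 3' and Illumina NovaSeq.

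The members and lists were chosen with earlier results of these data known. Barcodes were kept from 500 UMIs and 200 genes upward where mitochondrial UMIs did not exceed 20%, and doublets called by Scrublet were left out. Clusters came from scanpy 1.11.5 (2000 variable genes, 30 components, 15 neighbours, Leiden at resolution 1.5), without the members, the gate list, the S phase list, histone genes and 131 further genes that correlated with the gate score at 0.3 or more. The resolution, those 131 genes and the naming margin of 0.25 were set after seeing the data. Cluster names stand for cells like that type, from 133 of 144 marker symbols found.

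Shares have exact Clopper-Pearson intervals, levels exact Poisson intervals and ratios exact conditional binomial intervals (scipy 1.17.1), all at 95% and for counting error only. A gene was tested with at least 20 UMIs in the pair and called at 2-fold, in classes of at least 200 cells and, for gated cells, at least 50. With 1 pooled sample per group no test was run and no p-value is given. The calculations were tested on simulated data. Any member could be named, with fixed genes in every library, the 3 highest and 3 lowest per comparison and up to 4 genes per other list. Alternatives covered the gate, thinning, scaling, cell weights, count minimum, doublets, the mitochondrial limit and the classing of cells.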

Additional observations from a re-analysis of the deposited data

How the results depend on the processing

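No paired analysis was possible because each group is 1 pooled library and no label pairs them. A recomputed value was called turned where the reported counting interval excluded no change and the direction changed. Otherwise it was called the same within that interval and moved outside it. Changes of direction were thus not counted as turned where the interval included no change. For medians the interval was the median of the members' bounds. Of the share ratios recomputed, 177 were the same, 31 moved and 5 turned. For medians over all cells the counts were 130, 16 and 1, and for medians within gated cells 69, 1 and 0. For named genes they were 214, 24 and 2. The cause was not tested in any case. Runs without thinning or without clusters 4 and 17 were chosen after seeing the data.

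Turned: without clusters 4 and 17, the single-dose suprabasal share ratio to control was 0.629 and the median -0.88. With a gate of 5 member UMIs the day 14 share ratio was 1.05 in endothelial cells and 1.06 in macrophages. Unthinned mural share ratios were 1.12 for day 14 to control and 0.812 for fractionated over single-dose. With cells weighted equally, Kif23 in gated basal cells at day 7 after fractionation was 0.017 and Gas2l3 over all single-dose endothelial cells 0.063. Counted as moved were 3 unthinned share ratios to control. They were 0.997 for single-dose mural cells, 0.721 for single-dose macrophages and monocytes, and 0.810 for fractionated day 7 mural cells. The last changed direction, but its reported interval included no change.

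Moved, share ratios, basal: 0.676 for the single dose thinned to 1000 UMIs; 0.411 for fractionated day 7 unthinned; for fractionated over single-dose 0.787 (gate at 5 UMIs), 0.779 (thinned to 1000), 0.560 (gate of 5 member UMIs) and 0.456 (unthinned). Suprabasal: single dose 2.95 (thinned to 1000) and 1.62 (unthinned), fractionated day 7 0.574 (classes by cell), 0.419 (unthinned) and 0.162 (without clusters 4 and 17), fractionated over single-dose 0.290 (gate at 5), 0.278 (thinned to 1000) and 0.185 (classes by cell). Endothelial: single dose 0.0864 (gate at 5), 0.0547 (thinned to 1000) and 0.591 (unthinned), day 14 0.793 (unthinned), fractionated over single-dose 10.2 (gate at 5), 15.7 (thinned to 1000) and 1.08 (unthinned).

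Moved, median log2 ratios, basal: single dose -0.48 (median-of-ratios scaling) and -0.54 (cells weighted equally), fractionated day 7 -0.62 (equal weights) and, within gated cells, -0.061 (median-of-ratios), fractionated over single-dose -0.031 (equal weights). Suprabasal: single dose 1.12 (classes by cell), fractionated day 7 -0.061 (equal weights), -0.74 (classes by cell) and -2.19 (without clusters 4 and 17), fractionated over single-dose -1.25 (equal weights), -1.84 (classes by cell) and -1.24 (without clusters 4 and 17).

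Depth limits the endothelial, mural, satellite and immune shares, which rest on 0 to 102 gated cells, and the fractionated day 7 library, where more basal, suprabasal, endothelial and mural cells were left out as shallow than in the others. With 1 library per group, differences between pools and between conditions cannot be told apart.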

Other observations

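Classes not described above gave these values. Mast-like cells had 17 of 70 gated (24.3%) after the single dose, 7 of 8 at day 7 after fractionation and 0 of 44 at day 14, in a cluster in which 34.8% of cells were called doublets before those were left out. T, NK and innate lymphoid cells had 2 of 49 gated in the control library, 4 of 138 after the single dose, 2 of 16 at day 7 after fractionation and 6 of 103 at day 14. Lymphatic endothelial cells had 9 of 359, 1 of 102, 0 of 4 and 3 of 85 in that order. Glia had 5 of 346, 1 of 91, 1 of 10 and 6 of 489. Over all glia 20 of 32 members tested were at least 2-fold lower at day 14 than in the control library (3.6% of all genes) and 1 higher (10.4%), with a median log2 ratio of -1.92. Mki67 had 98 UMIs in control glia and 12 at day 14, and Nusap1 51 and 3. In glia outside the gate Mki67 had 5 and 5 UMIs and Nusap1 5 and 2. The 5 gated control glia held a mean of 224 member UMIs before thinning. The 6 gated at day 14, 4 of them exactly at the gate, held 17.5. Outside the gate the means after thinning were 1.60 and 1.83 member UMIs. The count of members lower over all glia thus leaned on few control cells.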
